A study of Mus musculus with 2 samples.

Results

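Nonclassical monocytes are the monocytes that crawl along the inner wall of blood vessels. Among 14849 cells sorted from mouse brain, 135 met a marker rule for them and are called members or nonclassical monocytes here. Some members also carried genes of B cells, macrophages or classical monocytes, as given below. A cell was taken as a member if it held UMIs of at least 2 of 5 genes of this cell type, Ace, Treml4, Cd300e, Adgre4 and Pparg. S100a8 and S100a9, which mark neutrophils, had to make up less than 3% of its UMIs, and 6 microglia genes (P2ry12, Gpr34, Tmem119, Siglech, Fcrls and Olfml3) less than 0.5%. Cells with at least 2 UMIs of Ly6c2 and at least 1 of Ccr2, the pattern of classical monocytes, were left out. Members were thus chosen on measured expression, so the levels of these 15 genes in them follow from the choice and are given as a description.

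The cells came from the brains of 23-week-old male mice, 6 Disc1 WT/WT and 6 Disc1 LI/LI littermates, pooled by genotype into 1 library each and called WT/WT and LI/LI in the following. LI/LI mice are homozygous for an impaired Disc1 locus, and WT/WT mice are wild type. Tissue was dissociated in actinomycin D, an inhibitor of transcription, separated on a Percoll gradient, and sorted for low CD45 and for CD11b, a gate set for microglia. The count of each gene is a number of UMIs, random tags that mark captured transcripts so that amplified copies are counted once.

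Nonclassical monocytes arise from classical monocytes, which carry Ly6c and CCR2 and enter inflamed tissue, and the change depends on the nuclear receptor NR4A1. They lose Ly6c and CCR2, keep the fractalkine receptor CX3CR1, and hold on to the vessel wall through the integrin LFA-1, of which Itgal encodes the alpha chain. In the brain they are found in the vessels rather than among neurons, so that vessel-bound cells can reach a brain suspension.

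Each genotype is 1 library, so differences have no replicate check, no test was made, and cells were not treated as replicates. Levels are in CPM, a gene's UMIs in a set of cells for every 1000000 UMIs of that set. Intervals are 95% exact intervals (Poisson for CPM, binomial for shares, Clopper-Pearson for log2 ratios), and they cover counting error only. The mice of a pool, the library and the genotype cannot be told apart. The libraries held 33601957 UMIs in 7038 barcodes (WT/WT) and 47731571 UMIs in 7834 barcodes (LI/LI). Members held a median of 3159 UMIs (1372 to 7585) and 1442 genes in WT/WT and of 2861 UMIs (688 to 10730) and 1226.5 genes in LI/LI, with 121772 and 341481 UMIs in all. Of the barcodes, 12 occurred in both libraries, and none of them was a member. The gene altered in these mice, Disc1 (chromosome 8, 125054195 to 125261858, mm10), was at 21.6 CPM in WT/WT microglia and 2.5 CPM in LI/LI microglia, but only 1 UMI in the WT/WT members and 0 in the LI/LI members. A difference in Disc1 between the members was not detectable at this depth.

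Members made up 37 of 7032 WT/WT cells (0.526%, 0.371 to 0.725) and 98 of 7817 LI/LI cells (1.25%, 1.02 to 1.53). The share of all cells depends on what else was sorted. Neutrophils, cells with at least 3% of UMIs from S100a8 and S100a9, were 1.49% of WT/WT and 45.6% of LI/LI cells, and microglia, with at least 1% from the 6 microglia genes, were 61.5% and 15.1%. Among the cells within the limits of the gate, under 3% from S100a8 and S100a9 and under 0.5% from the microglia genes, members were 37 of 735 (5.03%, 3.57 to 6.87) and 98 of 2241 (4.37%, 3.56 to 5.30), and these intervals overlap. With at least 3 markers required they were 26 (3.54%, 2.32 to 5.14) and 43 (1.92%, 1.39 to 2.58), so the near-equal shares depend on the limit of 2. Classical monocytes, defined among the same cells by Ly6c2 and Ccr2, fewer than 2 of the 5 markers, under 0.1% of UMIs from 4 progenitor genes and fewer than 2 of 6 cell cycle genes, numbered 28 and 842. There were thus 1.32 nonclassical monocytes per classical monocyte in WT/WT and 0.116 in LI/LI. The differences in these shares cannot be told apart from differences between the pools or the sorts.

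The markers that defined the members were Ace, angiotensin-converting enzyme (chromosome 11, 105967945 to 105989964); Treml4, a receptor for dying cells (chromosome 17, 48264295 to 48275360); Cd300e, an activating receptor of myeloid cells (chromosome 11, 115051917 to 115062177); Adgre4, an adhesion receptor (chromosome 17, 55749984 to 55853662); and Pparg, a nuclear receptor for lipids (chromosome 6, 115360951 to 115490399). All 5 were measured as UMIs of the whole gene on mm10. WT/WT members carried more of them: 6 of 37 held all 5 and 11 held only 2, whereas 2 of 98 LI/LI members held all 5 and 55 held only 2. A member had a median of 6 marker UMIs in WT/WT and of 3 in LI/LI, and 3 and 26 members sat on the limit with 2 marker UMIs. Ace was found in 83.8% of WT/WT and 56.1% of LI/LI members, Cd300e in 64.9% and 35.7%, Adgre4 in 75.7% and 72.4%, Treml4 in 67.6% and 60.2%, and Pparg in 40.5% and 34.7%. Ace and Adgre4 were the commonest pair in WT/WT, in 26 members, and Treml4 and Adgre4 in LI/LI, in 41.

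**Figure D1:**
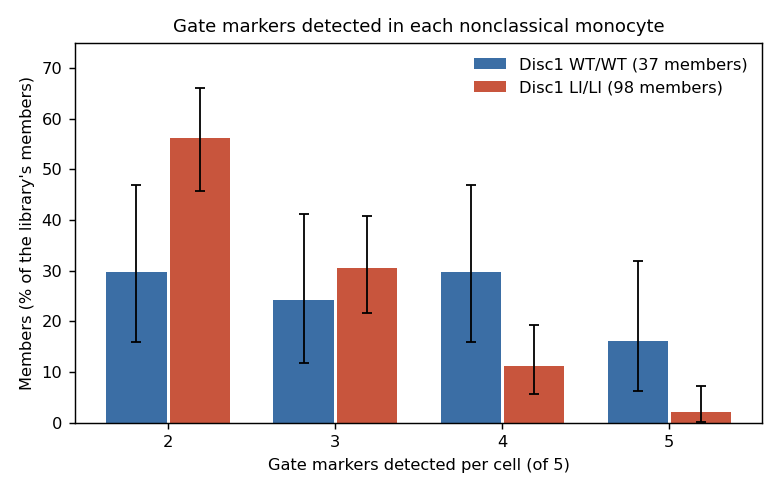
Share of the members of each library (y axis, %) in which 2, 3, 4 or 5 of the gate markers were detected (x axis), with exact binomial 95% intervals as lines. The bar at 2 markers holds 29.7% of the 37 WT/WT members and 56.1% of the 98 LI/LI members, and the bar at 5 holds 16.2% and 2.04%.

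Since cells differed in depth, each was also thinned to 1000 UMIs. Ace then had a UMI in 14 of 37 (37.8%, 22.5 to 55.2) WT/WT members and in 26 of 96 (27.1%, 18.5 to 37.1) LI/LI members. In classical monocytes it was seen in 0 of 28 and in 4 of 841 cells (0.476%), in microglia in 0 of 4266 and 0 of 1173 cells, and in neutrophils in 0 of 104 and 4 of 3561 cells (0.112%). Ace was thus detected far more often in members than in the other cell sets at equal depth, as the choice of members requires. Before thinning, at least 2 markers were found in 0 of 4328 and 0 of 1182 microglia and in 0 of 105 and 15 of 3565 neutrophils (0.421%). Just outside the limits, the microglia genes alone removed 8 WT/WT and 3 LI/LI cells, S100a8 and S100a9 alone 0 and 11, and Ly6c2 with Ccr2 alone 1 and 19. Inside, the highest S100a8 and S100a9 share of a member was 0.0296% and 0.421%, and the highest microglia gene share 0.422% and 0.494%. The nearest cells outside held 0.530% and 0.586% of microglia genes, so that members end close to this limit, but the nearest outside for S100a8 and S100a9 held 4.91%.

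For 3 of the markers there is a single start site in the RefSeq promoter table (GRCm38.p6), and the 250 bases before it are shown for these genes because they define the members. That they occur together follows from the gate. For Cd300e the RefSeq start site lies within the gene span given above, so part of its window is inside that span. Capitals mark the ETS core GGAAGT, the motif of PU.1 and its relatives, and TTNNGNAA, a loose form of the C/EBP motif, on either strand.
Treml4 (chr17:48264045-48264294, plus strand): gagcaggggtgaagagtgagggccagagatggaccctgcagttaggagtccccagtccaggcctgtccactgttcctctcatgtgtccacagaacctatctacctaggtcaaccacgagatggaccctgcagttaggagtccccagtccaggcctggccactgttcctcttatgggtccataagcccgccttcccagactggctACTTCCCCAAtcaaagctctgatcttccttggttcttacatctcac
Cd300e (chr11:115062040-115062289, minus strand): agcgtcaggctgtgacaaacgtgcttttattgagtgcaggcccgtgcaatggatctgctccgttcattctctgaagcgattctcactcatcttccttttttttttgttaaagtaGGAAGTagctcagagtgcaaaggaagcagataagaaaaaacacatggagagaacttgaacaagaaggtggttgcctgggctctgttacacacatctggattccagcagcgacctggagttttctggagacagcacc
Adgre4 (chr17:55749734-55749983, plus strand): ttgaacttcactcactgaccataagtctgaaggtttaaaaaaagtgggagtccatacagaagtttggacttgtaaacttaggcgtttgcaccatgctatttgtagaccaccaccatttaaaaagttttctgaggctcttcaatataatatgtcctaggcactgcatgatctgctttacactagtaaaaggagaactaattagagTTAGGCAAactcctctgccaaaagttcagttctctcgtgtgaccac

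Treml4 holds both motifs, overlapping each other, close to its start, Cd300e the ETS core, and Adgre4 the C/EBP form. GGAAGT occurs in 19.7% and TTNNGNAA in 36.8% of the 32851 promoter windows of the table, so neither is rare. Of the marker genes, 2 of 5 had GGAAGT and 3 of 5 TTNNGNAA in at least 1 window. Ace has 2 windows and Pparg 3. Counts of genes with a match in any window are a different measure from the shares of single windows and can run higher. The share of all genes with a match was not computed. Of 20 nonclassical monocyte genes outside the gate with a window, 8 had GGAAGT and 8 TTNNGNAA, against 9 and 13 of 15 classical monocyte genes. The NR4A site AAAGGTCA, held by 1.34% of all windows, was in no window of these 3 lists. The CACCC box, searched as CCACCC, is in 28.1% of all windows. It was in 2 of the 5 marker genes and 12 of the 20 nonclassical genes, against 6 of the 15 classical genes. A match is a string of letters and not a measured binding site.

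The label was set beside 28 nonclassical monocyte genes and 18 classical monocyte genes that the gate does not use. A WT/WT member held a median of 19 of the 28 nonclassical genes (11 to 24), and a LI/LI member of 16 (1 to 23). Classical monocytes, although deeper, held 12 and 11. Classical genes showed the reverse, with a median of 5 of 18 in the members of each library and of 13 in the classical monocytes of each library. Over all members the 28 nonclassical genes took 19027 CPM in WT/WT and 15843 CPM in LI/LI, against 6702 and 8211 CPM in classical monocytes. Summed over all members, the genes of their name were thus higher than in classical monocytes, but members differed. The 55 LI/LI members with 2 gate markers held 14625 CPM of the nonclassical genes. They held 24879 CPM of the whole classical list, which here includes Ly6c2 and Ccr2. Over all LI/LI members, 5270 of the 7102 UMIs of that whole list were of Lyz2.

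**Figure D2:**
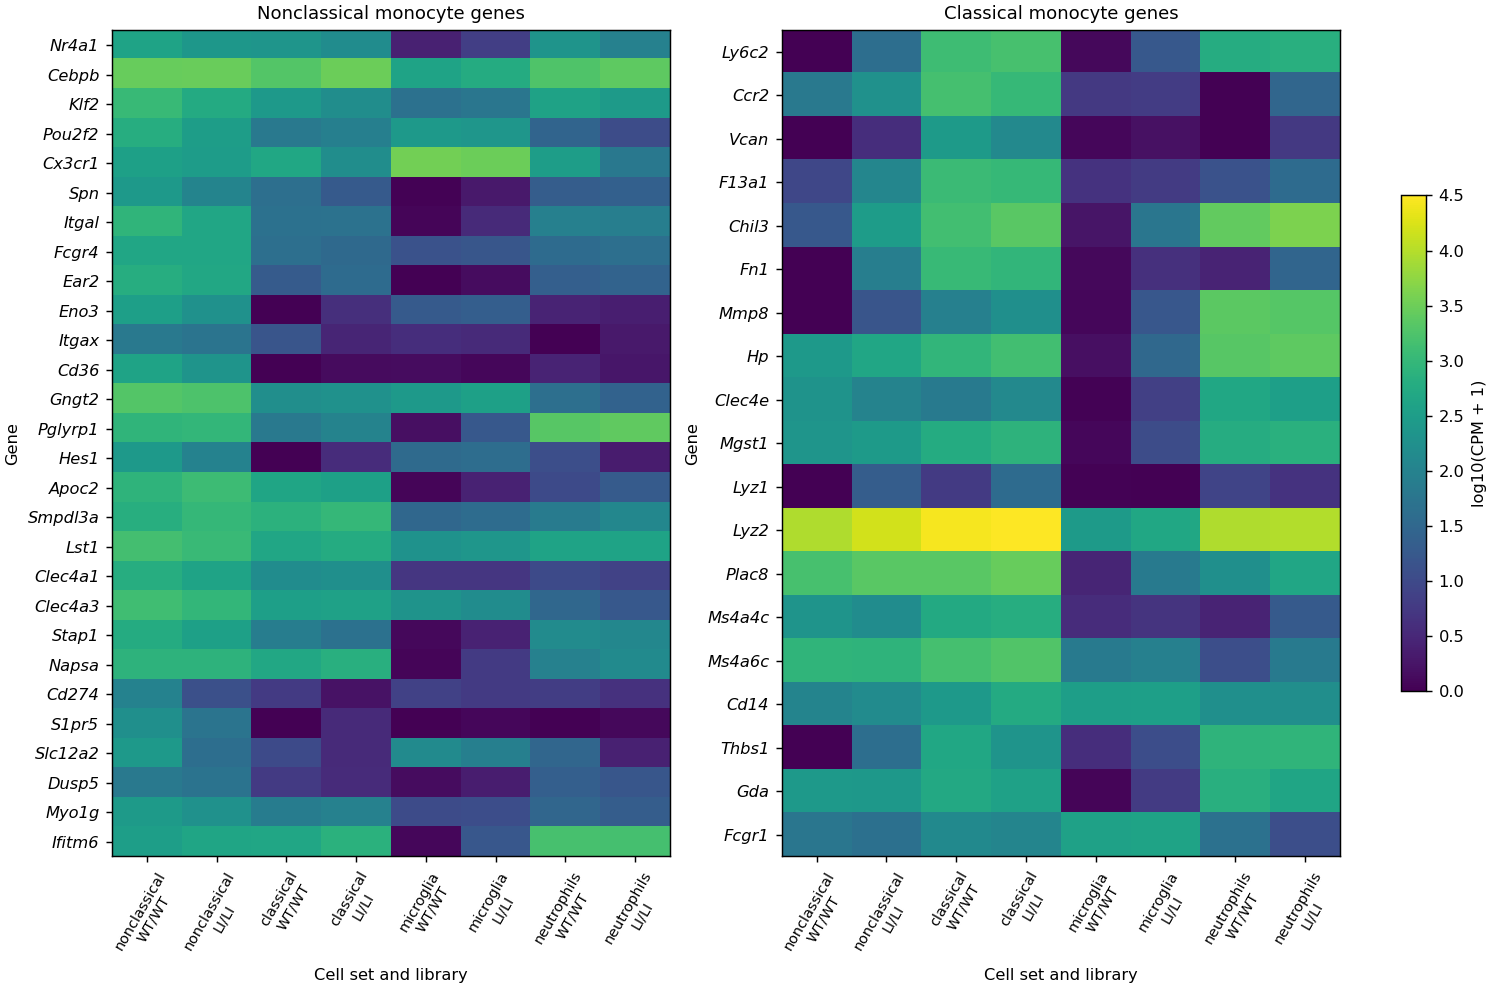
Levels of genes of the nonclassical (left) and classical (right) monocyte lists, as log10(CPM + 1) in color, in 4 cell sets of each library. Cd36, Eno3, Hes1 and S1pr5 are brighter in the nonclassical than in the classical columns, and Vcan, Fn1 and Ly6c2 show the opposite. Vcan, Fn1 and Ly6c2 are at 0 in WT/WT members, but in LI/LI members Fn1 is at 82.0 CPM and Ly6c2 at 41.0 CPM.

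Against classical monocytes, 56 of 2673 genes with enough counts were over 4-fold higher in nonclassical monocytes in both libraries (2.1%), and 32 were over 4-fold lower in both (1.2%). Of the nonclassical list, 25 genes could be compared, 21 were higher in both libraries and 12 over 4-fold higher, with a median log2 ratio of 2.09 in WT/WT and 1.88 in LI/LI, where the median of all genes was -0.018 and -0.0032. Of the classical list, 17 could be compared, 16 were lower in both and 7 over 4-fold lower, with medians of -1.61 and -1.91. The lists were known to mark these cells, but members and lists were chosen with earlier results of these data known. The classical set was also defined by Ly6c2, Ccr2 and few gate markers. These counts thus describe the label and are not an independent check of it. The classical set of WT/WT has only 28 cells with 212770 UMIs, so a gene at 0 there is bounded by a floor of 3 UMIs (14.1 CPM).

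The lipid genes Fabp4 and Cd36 were high in members and near 0 in classical monocytes. Fabp4, a fatty acid binding protein (chromosome 3, 10204088 to 10208576), was at 608 CPM in WT/WT and 471 CPM in LI/LI members, against 0 and 2.05 CPM in classical monocytes. It was at least 43.1-fold higher in WT/WT, and its log2 ratio in LI/LI was 7.85 (7.0 to 8.83). Cd36, the scavenger receptor for lipids (chromosome 5, 17781690 to 17888801), was at 402 and 214 CPM against 0 and 0.342 CPM, at least 28.5-fold higher in the first library and with a log2 ratio of 9.29 (7.38 to 12.36) in the second. Neither gene was above 2 CPM in the microglia of either library. Pparg, a receptor that is known to drive both genes, belongs to the gate. Apoe, the carrier of cholesterol, was also higher (6405 and 3895 CPM against 1264 and 1498), as was Apoc2, which activates lipoprotein lipase (854 and 1204 against 442 and 354). Of the list of scavenging and lipid genes as a whole, 11 of 14 compared genes were higher in both libraries and 2 lower in both. Of all 2673 genes, 910 were higher and 947 lower in both. Fabp4 and Cd36 were the 2 over 4-fold higher in both, where 2.1% of all genes were. Lgals3, galectin-3, was lower in members (517 and 905 CPM against 1692 and 2355).

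Of the survival genes, the 3 copies of Bcl2a1 set members apart from classical monocytes. Bcl2a1d, which encodes a BCL2 relative that blocks cell death (chromosome 9, 88723285 to 88731914), was at 345 and 179 CPM in members and 4.70 and 5.47 CPM in classical monocytes, log2 ratios of 6.2 and 5.03. Its copies Bcl2a1a (98.5 and 84.9 CPM, log2 4.39 and 4.43) and Bcl2a1b (509 and 211 CPM, log2 3.59 and 3.49) went the same way. These 3 genes are nearly identical in sequence, so reads may be divided among them. They are the 3 of 14 survival genes over 4-fold higher in both libraries, where 2.1% of all genes were. Of the 14 genes 8 were higher in both libraries, 3 lower in both and 3 had opposite signs, with medians of 0.63 and 0.38. Of all 2673 genes, 910 were higher and 947 lower in both. Mcl1, another member of the family, was at similar levels (747 and 744 CPM against 841 and 747). Csf1r, the receptor for the growth factor CSF1, had log2 ratios of 0.45 and 1.29.

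Transcription factors that were higher in members in both libraries included Hes1, a target of Notch (271 and 99.6 CPM against 0 and 2.73), Tcf7l2, of the Wnt pathway (255 and 82.0 against 4.70 and 4.61), and Pou2f2 (641 and 322 against 65.8 and 88.0). Hes1 was at least 19.2-fold higher in WT/WT and 5.19 (4.29 to 6.14) on the log2 scale in LI/LI. Klf2, a factor that keeps leukocytes quiescent, was higher by 1.99 and 1.82. Nr4a1, on which the cell type depends, was higher by only 0.87 and 0.66 (402 and 237 CPM against 221 and 150.3), and it was near 0 in microglia (1.59 and 5.84 CPM). Of 27 compared transcription factors 11 were higher in both libraries, 4 lower in both and 12 had opposite signs, and the share of higher ones is near that of all genes (910 of 2673). Cebpd, an inflammatory factor, was among the lower ones (-1.90 and -1.74).

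Some genes for holding on to vessels and for moving were higher. Itgal, the alpha chain of LFA-1 (chromosome 7, 127296260 to 127335138), was at 862 and 454 CPM in members and at 47.0 and 48.3 CPM in classical monocytes, and its partner chain Itgb2 at 427 and 542 against 226 and 216 CPM. S1pr5, a receptor for sphingosine-1-phosphate that guides cells out of the marrow, was at 172 and 52.7 CPM against 0 and 2.39 CPM, at least 12.2-fold higher in WT/WT. Spn, which encodes CD43, had log2 ratios of 2.68 and 2.57, Pecam1, an endothelial and leukocyte adhesion molecule, of 3.39 and 3.55, and Cd9, a tetraspanin, of 2.76 and 2.25. Of 16 compared adhesion genes, 10 were higher in both libraries and 4 lower in both, where 910 and 947 of all 2673 genes were. Cx3cr1 was not among the separating genes, with 361 and 307 CPM in members and 470.0 and 161 in classical monocytes. It is abundant in microglia (3531 and 3126 CPM). The microglia gene P2ry12 was at 65.7 and 90.8 CPM in members and at 254 and 58.6 CPM in classical monocytes. The part of microglia RNA in the Cx3cr1 values was not tested.

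**Figure D3:**
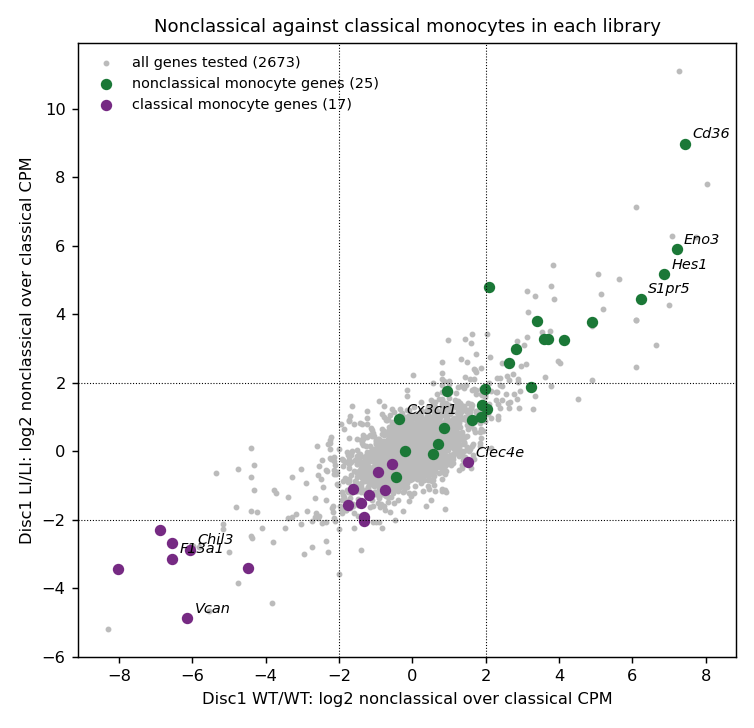
Each point is a gene, with the log2 ratio of CPM in nonclassical over classical monocytes in WT/WT (x axis) and in LI/LI (y axis), computed with 0.5 UMIs added. Dotted lines mark a 4-fold difference, and 12 of the 25 nonclassical monocyte genes lie beyond both lines on the high side and 7 of the 17 classical genes on the low side.

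Other genes among the highest ratios were Eno3, the muscle form of enolase (345 and 187 CPM against 0 and 3.07), Dusp16, a phosphatase of stress kinases (296 and 114 against 0 and 5.98), and Tgm2, transglutaminase 2, for which the WT/WT members had 9 UMIs (73.9 and 82.0 CPM against 0 and 2.22). Fcgr4, the IgG receptor that is known for this cell type, was at 468 and 469 CPM against 42.3 and 33.8 CPM, log2 ratios of 3.47 and 3.79. Fcgr1, the high-affinity receptor, had -1.25 and -1.32, the opposite direction. Ear2, a secreted ribonuclease with close copies in the genome, was at 632 and 495 against 18.8 and 36.6 CPM.

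On the low side stood the genes of the classical monocyte. Fn1, fibronectin, was at 0 and 82.0 CPM in members and at 1081 and 904 CPM in classical monocytes. Vcan, versican, was at 0 and 2.93 CPM against 287 and 129, F13a1, a clotting factor chain, at 8.21 and 114 against 1156 and 1021, and Chil3, a chitinase-like protein, at 16.4 and 302 against 1368 and 2237. In WT/WT these genes were thus close to 0 in members, and in LI/LI they were low but present. Ccr1, Osm and Ccl4 were lower as well. Ccr1, a chemokine receptor, had 0 and 8.79 CPM against 188 and 263, Osm, oncostatin M, 0 and 8.79 against 108 and 147, and Ccl4, a chemokine, 8.21 and 14.6 against 174 and 349. Mmp8 (a collagenase), Gas7, Capg (which caps actin filaments), Slpi (a protease inhibitor), Ifi47 (induced by interferon) and Ccl5 completed the lowest genes. Ccl5 rests on other cells, since 5 of the 28 WT/WT classical monocytes and 22 of the 842 in LI/LI held at least 2 T or NK cell markers. Without those, its log2 ratio went from -6.39 to 0.63 in WT/WT and from -2.91 to 1.10 in LI/LI. Among members, 0 held 2 such markers.

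The interferon response list was lower in members, with 11 of 13 compared genes lower in both libraries, where 947 of all 2673 genes were, and medians of -0.75 and -1.27. Slfn5 (-3.25 and -2.17) and Slfn1 (-2.68 and -1.93), both interferon-induced, were over 4-fold lower or close to it. Of the 8 cytokine and chemokine genes compared, 6 were lower in both, a small number to set against the 947 of 2673, but Il1b, interleukin-1 beta, was higher (723 and 343 CPM against 235 and 136). Of 11 MHC class I genes 8 were higher in both libraries, where 910 of all 2673 genes were, with H2-K1 at 0.81 and 1.21 and B2m at 0.91 and 0.94. Subunits of the ARP2/3 complex, which branches actin filaments, lay close to the median of all genes, with -0.06 and -0.30. Among genes that act upstream of it, Cyfip2, a subunit of the WAVE complex, was over 4-fold higher (189 and 64.4 CPM against 9.40 and 10.9), and Abi3, another subunit, was higher by 1.49 and 2.61. Of 13 compared WAVE and Rac genes, 5 were higher in both libraries, 2 lower in both and 6 had opposite signs. Their medians were 0.25 and 0.18, and 910 of all 2673 genes were higher in both.

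Members were not all alike, and genes of antigen presentation to helper T cells (MHC class II) varied widely between them. The 4 genes H2-Aa, H2-Ab1, H2-Eb1 and Cd74 took a median of 0.0411% of a member's UMIs in WT/WT (lowest 0, highest 12.001%) and of 0.172% in LI/LI (0 to 7.26%). In 11 of 37 and 20 of 98 members they were at 0, and in 3 of 37 (8.11%, 1.70 to 21.9) and 10 of 98 (10.2%, 5.00 to 18.0) they made up at least 2%. Near this limit, from 1.5% to 2.5%, lay 0 WT/WT and 7 LI/LI members, so the LI/LI count depends on where it is set. The few high members set the sums. In WT/WT a single member with 5791 UMIs held 387 of 658 Cd74 UMIs, 112 of 238 of H2-Aa and 15 of 23 of Ms4a7, a macrophage gene. This cell had 128 UMIs of Apoe and 47 of C1qa, and of the gate markers 1 UMI each of Adgre4 and Pparg. It held 0 UMIs of Itgal, Spn, Fabp4 and Cd36, and it held 11 of the 28 nonclassical genes.

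Members with high MHC class II were not only those at the edge of the gate. In LI/LI, 6 of 55 members with 2 gate markers, 2 of 30 with 3 and 2 of 11 with 4 held at least 2%, and in WT/WT 2 of 11 with 2, 0 of 9 with 3, 0 of 11 with 4 and 1 of 6 with 5. High members were deeper, with a median of 5235 against 3130.5 UMIs in WT/WT and 5359.5 against 2748 in LI/LI. In LI/LI the high members had fewer UMIs of Cd300e (33.3 against 220.3 CPM), Adgre4 (199.7 against 359 CPM) and Fcgr4 (149.8 against 537 CPM), while Ace was near level (233 against 238 CPM). They had more of the B cell genes Cd79a (466 against 199 CPM) and Igkc (1248 against 391 CPM). Cd209a, a dendritic cell gene, was at 233 against 7.11 CPM, with 13 of its 16 UMIs in 1 cell. WT/WT members held 0 UMIs of these genes. Doublets were not removed, and their part in these cells was not tested.

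**Figure D4:**
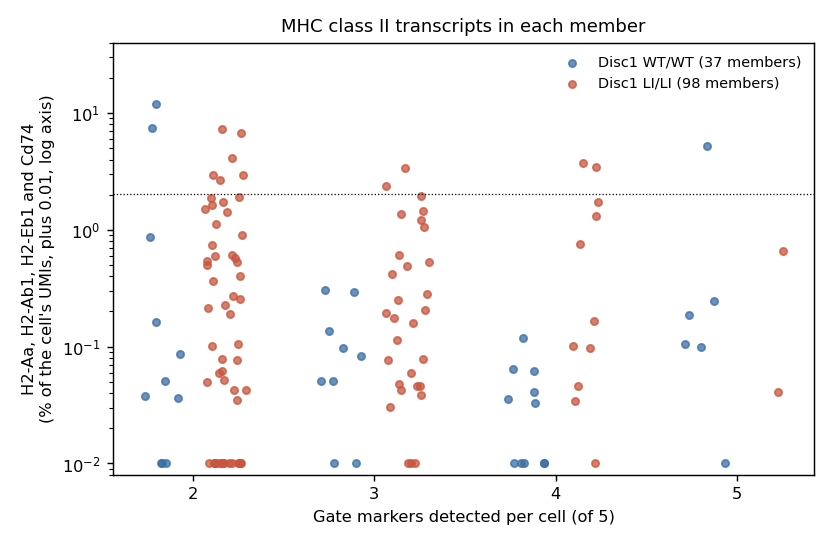
Each point is 1 member, with the number of gate markers detected (x axis) and the share of its UMIs from the 4 MHC class II genes (y axis, log scale, 0.01 added). The dotted line is 2%, and 3 of 37 WT/WT and 10 of 98 LI/LI members lie above it, at 2 to 5 markers.

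Clustering the members alone gave 3 clusters, described here without a test because the same genes formed them. Cluster 1 held 4 WT/WT and 44 LI/LI members, cluster 2 held 29 and 23, and cluster 3 held 4 and 31. Cluster 1 had more of Apoc2 (2150 against 777 CPM in the other members) and Pglyrp1, an antibacterial protein (1787 against 671). Cluster 2 had more of Slc12a2, an ion transporter (223 against 24.2), but also of the microglia genes Sparc (499 against 34.6) and C1qa (2069 against 371). Cluster 3 had the MHC class II genes (H2-Aa 4234 against 115 CPM, Cd74 14484 against 1534) together with the classical genes F13a1 (216 against 6.96) and Ccr2 (347 against 38.3). The list of B cell markers took 2202 CPM in cluster 3, against 363 and 166 CPM in clusters 1 and 2. Summed over a cluster, the nonclassical genes took 21394, 18646 and 11695 CPM in clusters 1, 2 and 3. The whole classical list, Ly6c2 and Ccr2 included, took 19208, 13288 and 23839.5 CPM. Every cluster held members of both libraries, but clusters 1 and 3 held only 4 WT/WT members each.

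Turning to genotype, 4986 genes had at least 10 UMIs over the members of both libraries. In LI/LI members 373 were over 2-fold higher (7.48%) and 779 over 2-fold lower (15.6%), and for 114 and 352 of these the counting interval excluded equality. Of all 4986 genes, 37.7% were higher and 62.3% lower by any amount, with 0.5 UMIs added to each count, and the median log2 ratio was -0.21. Scaling by edgeR's TMM method raised all ratios by 0.19, to a median of -0.02, and turned the counts to 487 higher and 522 lower, so the excess of lower genes depends on the scale. Ratios are therefore to be read against -0.21. They were also lower in longer genes, with a Spearman's rho of -0.27 across 4983 genes of the same 2 libraries, from a median of 0.07 in the 1247 shortest genes to -0.53 in the 1246 longest. Ribosomal protein genes, which are short, made up 16.9% of the UMIs of WT/WT members and 23.1% of those of LI/LI members, and 73 of 79 were higher. In classical monocytes they were 18.4% and 21.6% and in microglia 7.39% and 8.56%, which is the same direction in other cells of the same libraries. Mitochondrially encoded genes went the other way, with 12 of 12 lower in LI/LI members, 3 of them over 2-fold, and a median of -0.36. They made up 1.41% and 1.10% of the members' UMIs, 1.36% and 1.06% in classical monocytes and 0.863% and 0.708% in microglia.

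Most genes of the nonclassical program were lower in LI/LI members, few of them by much. With 0.5 UMIs added to each count, 23 of 28 were lower and 5 higher, where 62.3% of all genes were lower, among the lower ones Fcgr4 and Napsa by next to nothing, with a median of -0.54 against -0.21 for all genes. Of the 28, 5 were over 2-fold lower and 0 over 2-fold higher, where 15.6% and 7.48% of all genes were, so the share over 2-fold lower is near that of all genes. Slc12a2 was at 263 and 41.0 CPM (log2 -2.68, -3.70 to -1.73), S1pr5 at 172 and 52.7 (log2 -1.71, -2.70 to -0.73), Hes1 at 271 and 99.6 (log2 -1.44, -2.18 to -0.71), Spn at 271 and 105 (log2 -1.36, -2.08 to -0.64) and Cd274, which encodes PD-L1, at 98.5 and 11.7 (log2 -3.07, -5.16 to -1.35). The first 4 were detected in 45.9%, 43.2%, 43.2% and 59.5% of WT/WT members and in 9.18%, 15.3%, 20.4% and 25.5% of LI/LI members. Pou2f2 (log2 -0.99, -1.42 to -0.55), Itgal (log2 -0.93, -1.29 to -0.55), Klf2 (log2 -0.92, -1.25 to -0.59), Cd36 (log2 -0.91, -1.45 to -0.36), Eno3 (log2 -0.88, -1.46 to -0.28) and Nr4a1 (log2 -0.76, -1.29 to -0.22) were lower by less than 2-fold. Others were level or higher, such as Fcgr4 (468 and 469 CPM), Cebpb (log2 0.05, -0.13 to 0.23), Apoc2 (log2 0.49, 0.18 to 0.82) and Smpdl3a, an enzyme that cleaves nucleotides (log2 0.58, 0.23 to 0.94). The list thus held genes on both sides of 0. Within cluster 2 Itgal was at 927 and 697 CPM, a smaller gap than over all members.

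**Figure D5:**
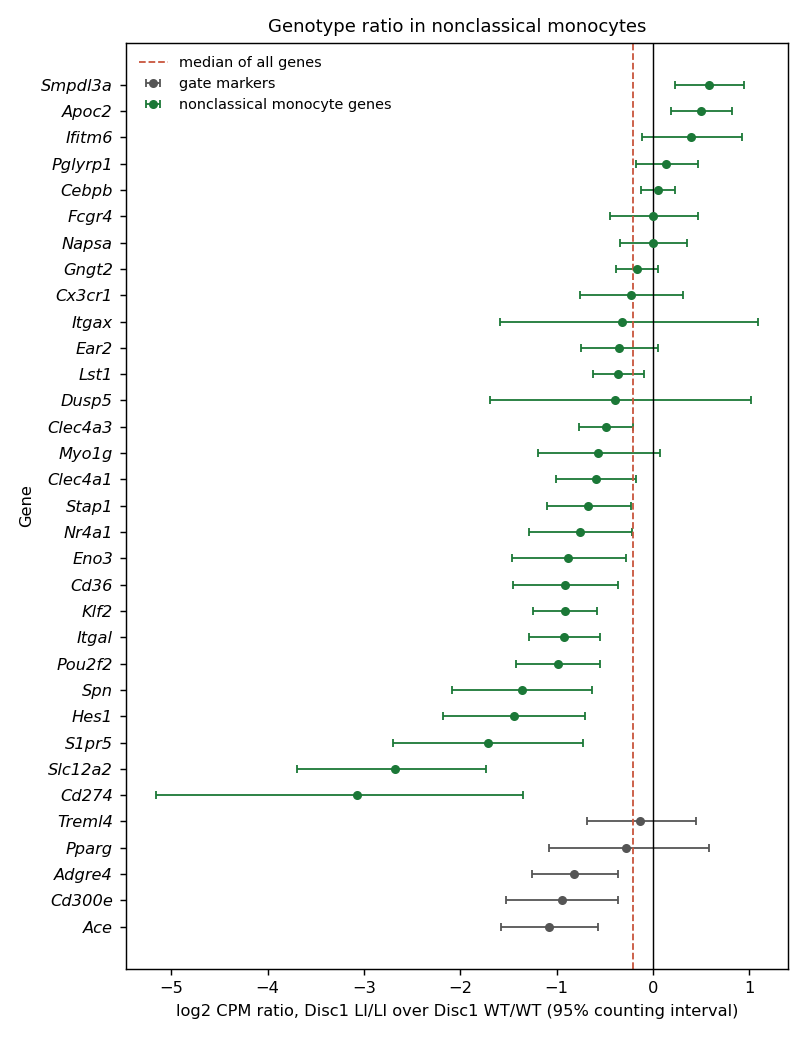
Log2 ratio of CPM in LI/LI over WT/WT members (x axis) with 95% counting intervals for the 5 gate markers and the 28 nonclassical monocyte genes (y axis). The dashed line is the median of all genes, -0.21. Of the 28 genes 5 lie above 0, Fcgr4 and Napsa lie at 0, and the others lie below it.

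The gate markers, which chose the members, had log2 ratios of -1.08 for Ace, -0.95 for Cd300e, -0.82 for Adgre4, -0.28 for Pparg and -0.14 for Treml4. Since LI/LI members more often held just 2 markers, the list was computed again over the 26 and 43 members with at least 3. Its median was -0.48, against -0.18 for all genes. Over the members with at most 3 detected genes of the MHC class II list it was -0.31, against -0.19.

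Classical monocyte genes were higher in LI/LI members, with 12 of 17 higher, where 37.7% of all genes were. Of the 17, 7 were over 2-fold higher, where 7.48% of all genes were, and the median was 0.76. This list of 20 genes includes Ly6c2 (0 and 14 UMIs) and Ccr2 (8 and 64 UMIs). The gate limits both, so their part in these counts follows from the choice of members and is a description only. Among genes that the gate does not use, Chil3 was at 16.4 and 302 CPM and F13a1 at 8.21 and 114. Hp, haptoglobin, was at 263 and 459.8 CPM and Lyz2, lysozyme, at 9107 and 15433 CPM (log2 0.76, 0.67 to 0.86). Ccr2, which the gate uses, was at 65.7 and 187 CPM. Ccr2, Chil3 and F13a1 were found in a minority of members. Ccr2 was detected in 8.11% and 23.5%, Chil3 in 5.41% and 25.5% and F13a1 in 2.70% and 10.2% of members. Lyz2 was found in 97.3% and 100%, and its direction depended on the cluster. It was at 10045 and 7794 CPM in cluster 2, which held 29 of the 37 WT/WT but 23 of the 98 LI/LI members. In cluster 1 it was at 9129 and 17143 CPM and in cluster 3 at 4209 and 18284 CPM, with only 4 WT/WT members in each. Lyz2 and Chil3 were also higher in LI/LI microglia, Lyz2 at 277 and 484 CPM and Chil3 at 0.772 and 57.9 CPM. With cells thinned to 1000 UMIs, Chil3 was found in 6 of 4266 (0.141%, 0.0516 to 0.306) WT/WT and 81 of 1173 (6.91%, 5.52 to 8.51) LI/LI microglia. The part of such RNA in the members' values was not tested. In members with at least 3 gate markers the list's median was 0.13. Clec4e, a receptor for dead cells, went the other way (log2 -1.0, -1.78 to -0.20).

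The 10 highest of the genes eligible for naming were Igkc, Ngp, Retnlg, Ly6d, Cd79a, Iglc1, S100a8, S100a9, Camp and Chil3. Ngp, Retnlg, S100a8, S100a9 and Camp are genes of neutrophil granules and cytosol. Retnlg had 0 UMIs in WT/WT members and 71 in LI/LI members (208 CPM), Ngp 0 and 57 (167 CPM), Camp 1 and 57, S100a8 1 and 145 and S100a9 1 and 133. They were spread over many cells, with Retnlg in 52.0% and S100a9 in 75.5% of LI/LI members, at 0.895% and 0.229% of the level in neutrophils. Classical monocytes of the same library held 147 CPM of Retnlg and 351 CPM of S100a9, and its microglia 166 and 378 CPM. The neutrophil list summed to 82.1 and 1652 CPM in members, to 456 and 1645 in classical monocytes and to 188 and 1493 in microglia, while neutrophils were 1.49% and 45.6% of the cells. S100a8 and S100a9, with 145 and 133 of the list's 564 UMIs in LI/LI members, are limited by the gate, so their part is a description only. The list was thus higher in LI/LI in members, classical monocytes and microglia alike, and the part of free RNA in it was not tested.

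Igkc, Iglc1, Cd79a and Ly6d are genes of B cells. Cd79a, a chain of the B cell receptor, had 0 UMIs in WT/WT and 84 in LI/LI members, and 81 of these lay in 7 LI/LI members that held at least 3 of 10 B cell markers. The same 7 cells, with a median of 4141 UMIs, held 160 of 185 Igkc UMIs and 72 of 73 Ly6d UMIs, and a single cell held 36 of 41 Iglc1 UMIs. Without them 91 LI/LI members remain (1.16% of cells). The B cell list summed to 131 and 1291 CPM, with Igkc the most abundant in LI/LI, and Igkc was at 4477 CPM in the classical monocytes of that library.

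The 10 lowest were Cd63, Slc12a2, AY036118, Pot1b, Nab1, Sptbn1, Ddx3y, Usp9x, Pecam1 and Lrrc8c. Cd63, a tetraspanin of lysosomes and platelets, was at 435 and 26.4 CPM (log2 -4.05, -5.25 to -3.01), but 1 member held 31 of 53 of its WT/WT UMIs. For Sptbn1, a spectrin of the membrane skeleton, 1 cell held 13 of 25 UMIs. Pecam1 was at 148 and 38.1 CPM (log2 -1.96, -3.11 to -0.85), Nab1, a partner of EGR factors, at 164 and 35.1 (log2 -2.22, -3.39 to -1.12), and Lrrc8c, a subunit of volume-regulated channels, at 189 and 49.8 (log2 -1.92, -2.92 to -0.96). Usp9x, a deubiquitinase, was at 181 and 43.9 CPM and Pot1b, a telomere protein, at 238 and 43.9. Ddx3y, an RNA helicase of the Y chromosome, was at 205 and 46.9 CPM, in pools that both held males. AY036118, a transcript that overlaps ribosomal RNA repeats, was at 624 and 108 CPM. Of these 10 genes 6 are longer than 54826.5 bases, the upper quartile of gene length.

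Of adhesion and crawling genes 14 of 19 were lower and 7 over 2-fold lower, where 62.3% and 15.6% of all genes were, with a median of -0.57 against -0.21 for all genes. Itga4, the alpha chain of VLA-4, was at 1166 and 372 CPM (log2 -1.65, -2.01 to -1.29), Cd9 at 1018 and 307 (log2 -1.73, -2.12 to -1.34), and Tln1, talin, which links integrins to actin, at 1084 and 539 (log2 -1.01, -1.34 to -0.67). Cd9 was detected in 91.9% of WT/WT and 48.0% of LI/LI members. Within cluster 2 Cd9 was at 1132 and 612 CPM and Itga4 at 1186 and 453, in the same direction, though the gap of Cd9 was smaller than over all members. Itgb2 was not lower (log2 0.34, -0.11 to 0.82), nor was Cd44 (255 and 255 CPM). Of the survival genes 13 of 16 were lower, where 62.3% of all genes were, with a median of -0.34 against -0.21 for all genes, and 3 were over 2-fold lower, a share near the 15.6% of all genes. The lowest was Bcl2a1b (509 and 211 CPM, log2 -1.27, -1.78 to -0.76) and Mcl1 was level (747 and 744). The lysosomal protease Ctsb was at 2702 and 1353 CPM (log2 -1.0, -1.20 to -0.79) and Il1b at 723 and 343 (log2 -1.08, -1.49 to -0.66).

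Immediate early genes, which respond within minutes to a stimulus and to tissue dissociation, were higher for 11 of 16. Of all genes, 37.7% were higher. The list's median was 0.49, or 0.23 with no filter on low counts and 0.15 with at least 3 gate markers. Of the 16, 6 were over 2-fold higher, where 7.48% of all genes were. Fos was at 238 and 794 CPM (log2 1.74, 1.18 to 2.34), Atf3 at 90.3 and 469 (log2 2.37, 1.5 to 3.41), Junb at 337 and 919.5 (log2 1.45, 0.98 to 1.96) and Dusp1 at 353 and 729 (log2 1.05, 0.57 to 1.55). Jun was level (345 and 328 CPM) and Nr4a1 lower. In classical monocytes, Fos was at 3299 and 1758 CPM and Atf3 at 771 and 675. In microglia thinned to 1000 UMIs, Fos was found in 134 of 4266 (3.14%, 2.64 to 3.71) WT/WT and 89 of 1173 (7.59%, 6.14 to 9.25) LI/LI cells, and Atf3 in 104 of 4266 (2.44%, 2.00 to 2.95) and 40 of 1173 (3.41%, 2.45 to 4.61). Fos was thus lower in LI/LI classical monocytes and found in a larger share of LI/LI microglia. In members with at least 3 gate markers the list's median was 0.15.

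Fc receptor genes were close to level, with 5 of 6 lower, where 62.3% of all genes were, 0 beyond 2-fold and a median of -0.04, and Fcer1g, the signaling chain, was at 5716 and 5476 CPM. MHC class I genes had a median of -0.15, with H2-K1 at 2061 and 2047 and H2-D1 at 2891 and 2905 CPM. Interferon response genes had a median of 0.07 and 6 higher and 6 lower of 12, but the median was -0.25 with at least 3 gate markers, -0.27 with no filter on low counts and -0.49 with at most 3 MHC class II genes. The ARP2/3 complex had 4 higher and 5 lower of 9 and a median of -0.04, with Arpc2 at 1265 and 1236 CPM and Actr2 at 550.2 and 328 (log2 -0.75, -1.20 to -0.29). Of WAVE and Rac genes 9 of 13 were lower, where 62.3% of all genes were, with a median of -0.21, equal to that of all genes, and Cyfip2 was the lowest (log2 -1.55, -2.46 to -0.64). Formins had only 3 genes with 10 UMIs. Of the cell cycle list 5 genes had 10 UMIs and all were higher, where 37.7% of all genes were, with a median of 0.16. Only 1 was over 2-fold higher, Pcna, the replication clamp, with 1 and 26 UMIs. Neither Mki67 nor Top2a had 10 UMIs.

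MHC class II genes had a median of 0.27, with Cd74 at 5404 and 6817 CPM and H2-Eb1 at 1979 and 1086. These sums rest on few cells. The 3 high WT/WT members held 589 of the 658 Cd74 UMIs and 233 of the 241 H2-Eb1 UMIs. In the members that were not high, Cd74 was at 642 and 3451 CPM and H2-Eb1 at 74.4 and 259, the opposite direction for H2-Eb1. Members were split on these same genes, and 0 WT/WT and 7 LI/LI members lay from 1.5% to 2.5%. The split itself can therefore set this direction, and no conclusion is drawn from it. The share of members with a UMI of H2-Aa was 16.2% in WT/WT and 37.8% in LI/LI. The median of the list was 1.02 in members with at least 3 gate markers and 0.51 without the 5% of members with the most UMIs. It was 0.14 without the 7 LI/LI members holding at least 3 B cell markers and 0.03 in members with 0 Ly6c2 UMIs. Of 10 complement genes 9 were lower, where 62.3% of all genes were, and 1 over 2-fold lower, with a median of -0.62 that was -0.05 without the 5% of members with the most UMIs. C1qa was at 1379.6 and 879 CPM, C1qb at 1117 and 685 and C1qc at 953 and 633. These 3 genes are abundant in microglia (10531 and 14425 CPM of C1qa), and single members held 63 of 168 and 92 of 300 of the C1qa UMIs. In members with at least 3 gate markers the median of the list was 1.52, the opposite direction.

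Markers of other cells were counted in members in full. The microglia list of 16 genes summed to 15775 and 15087 CPM, mostly Cst3, against 127637 and 156558 CPM in microglia. P2ry12, which the gate limits, was at 1.44% and 2.40% of its microglia level. The 10 T cell markers summed to 8.21 and 2.93 CPM and the 10 NK cell markers to 0 and 11.7, at most a few UMIs. Platelet markers summed to 82.1 and 5.86, where Pf4 had 10 UMIs in WT/WT and 0 in LI/LI. Border macrophage markers summed to 476 and 419 CPM, dendritic cell markers to 345 and 644, erythroid markers to 8.21 and 99.6, plasma cell markers to 238 and 322, progenitor markers to 41.1 and 132 and endothelial markers to 296 and 117. Mrc1, a macrophage receptor, had 28 UMIs in LI/LI members, of which 21 lay in 1 cell, and Cd209a, a dendritic cell gene, 16, of which 13 lay in 1 cell.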

How the data were processed

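The deposited counts of UMIs per gene and barcode, made by the authors with Cell Ranger 6.1.2 on mm10 and not normalized, were used for 32285 genes in 2 libraries. Seurat 3.0.1 is also named in the submitters' processing notes. Barcodes under 200 genes or over 10% mitochondrial UMIs were dropped, leaving 7032 and 7817 cells, and doublets were not removed. The sources name 2 droplet chips without tying either to a library. Members and gene lists were chosen with earlier results of these data known. UMIs were summed per library and cell set. Genotype ratios used genes with at least 10 UMIs over both libraries, and nonclassical over classical ratios genes with at least 50 CPM in 1 set of each library. Genes named are those of the gate and the lists, the 10 highest and lowest genotype ratios with at least 30 UMIs and 100 CPM in a library, and the 15 highest and lowest of the other comparison by the smaller ratio of the libraries, and the 15 most abundant genes of members. Members were clustered by the Leiden method (scanpy 1.11.5, 1000 genes, 15 components, resolution 0.5). GENCODE M21 gave positions and lengths for 32158 genes. The intervals of log2 ratios were tested on simulated Poisson counts, the model that they assume. That test does not cover UMIs that gather in few cells, so it does not show that the intervals hold for such genes. Intervals came from scipy 1.17.1 in Python 3.11.15 and TMM factors from edgeR 4.0.16 in R 4.3.3. Alternatives varied the gate, the scaling, the filter on low counts and the cells included. Some genes of the lists are not reported here.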

Additional observations from a re-analysis of the deposited data

Results flagged for a closer look

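For 4 genes of the nonclassical and classical monocyte lists the log2 ratio of nonclassical over classical monocytes had opposite signs in the 2 libraries. It was 0.55 in WT/WT and -0.07 in LI/LI for Cebpb, -0.38 and 0.93 for Cx3cr1, -0.21 and 0.01 for Smpdl3a and 1.54 and -0.35 for Clec4e. With 1 library per genotype these differences were not tested, nor was the part of microglia RNA in the Cx3cr1 ratios. Cells that met both the nonclassical marker criterion and the Ly6c2 and Ccr2 criterion entered no comparison, and there were 19 of them in LI/LI and 1 in WT/WT. Summed, the 19 cells held 1282 CPM of Ly6c2, 32471.5 CPM of Lyz2 and 8932 CPM of Cd74, but 0 UMIs of Fabp4 and 116 CPM of Ear2. Whether they are doublets was not tested.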

How the results depend on the processing

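With at least 3 gate markers, members were 0.37% of WT/WT and 0.55% of LI/LI cells, and 449 of 3237 genes were over 2-fold lower in LI/LI, against 779 of 4986. Thinning cells to 1000 UMIs before the gate gave 0.291% and 0.464%. With no filter on low counts, of 10632 genes 1091 were higher and 2645 lower, and of 10251 genes 247 and 93 were over 4-fold higher and lower than in classical monocytes. Among members with at most 3 detected MHC class II genes, an alternative chosen after seeing the data, 198 of 3603 genes were higher and 480 lower. The number of genes compared differed between these settings, and its part in the moved counts was not tested. The complement median of -0.62 was 1.52 with at least 3 gate markers and 0.26 with at most 3 MHC class II genes, and Ccl5 turned to 0.63 and 1.10 without cells holding T or NK cell markers, also chosen after seeing the data. The cause was not tested. The median of the nonclassical list stayed between -0.62 and -0.31. TMM scaling adds 0.19 to the log2 ratio of every gene. The medians of Fc receptors, the ARP2/3 complex and MHC class I genes, just under 0, thus become 0.15, 0.16 and 0.05. No paired analysis was possible because each genotype is 1 library. Depth limits genes under 10 UMIs in members.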

Other observations

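Among the most abundant transcripts of members, Malat1, a nuclear long noncoding RNA, was at 27584 CPM in WT/WT and 21670.3 CPM in LI/LI. Gm42418, which overlaps ribosomal RNA sequence, was at 9969 and 4000.2 CPM in members, at 2397 and 1882 CPM in classical monocytes and at 1556 and 1574 CPM in microglia. Ifitm3, an interferon-induced membrane protein, was at 4402 and 5874 CPM in members and at 22.1 and 73.8 CPM in microglia.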
